A study of Mus musculus with 24 samples.

Results

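Described here are 10 mouse genes that make or spend acetyl-CoA at the chromatin: 3 that supply acetyl-CoA outside the mitochondrion (Acly, Acss2 and Slc25a1) and 7 that code for histone acetyltransferases (Ep300, Crebbp, Kat2a, Kat2b, Kat5, Kat7 and Hat1). They were listed by name, with no threshold on their values, and are 10 of the 49585 genes counted in each of 24 RNA-seq libraries of whole white adipose tissue. All 10 were found in the count tables and all 10 passed the filter on low counts in every comparison.

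All mice were male, on the C57BL/6J background. In the diet experiment, wild-type mice ate a low-fat diet (10% of energy from fat, n = 4) or a high-fat diet (60% of energy from fat, n = 4) for 20 weeks, and subcutaneous adipose tissue (SAT) was taken. In the genotype experiment, Azin2-/- mice and their wild-type littermates all ate the 60% high-fat diet for 8 weeks, so that no group of that experiment ate the low-fat diet. SAT came from 3 Azin2-/- and 5 wild-type mice, and epigonadal adipose tissue (GAT) from 4 of each genotype. Azin2 codes for antizyme inhibitor 2, a regulator of polyamine synthesis. The sources used here do not give how the Azin2 allele was made, whether it acts in all cells, or the age of the mice, and nothing beyond titles with numbers or animal marks says that libraries come from separate animals, so p-values measure only the spread between these libraries, which may in part be technical.

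Acetyl-CoA cannot cross the inner mitochondrial membrane. Citrate leaves through the citrate carrier Slc25a1 and is cleaved in the cytosol and nucleus by ATP-citrate lyase, Acly, while acetyl-CoA synthetase Acss2 makes acetyl-CoA from acetate. Adipose tissue spends this pool on fatty acid and sterol synthesis, and histone acetyltransferases spend it on lysines of histones: Ep300 and Crebbp are paralogous coactivators, Kat2a and Kat2b are the alternative catalytic subunits of the SAGA and ATAC complexes, Kat5 is the enzyme of the NuA4/TIP60 complex, Kat7 acts in HBO1 complexes, and Hat1 acetylates newly made histone H4 before its deposition.

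The 3 supply genes varied most between libraries among the 10, so the sequences before their annotated starts are shown, from RefSeq windows of GRCm38.p6. They lie at chr11:100528001-100528250 on the minus strand (Acly), chr2:155517793-155517947 on the plus strand (Acss2) and chr16:17928220-17928469 on the minus strand (Slc25a1). Each is written 5′ to 3′ towards the gene. Capitals mark the letters GGGCGG (GC box), CCAAT (NF-Y box) and CACGTG (E-box), searched on both strands. For Acss2 the 95 bases next to the start are left out because annotated exons of Acss2 and of the neighbouring gene Ggt7 lie there.
Acly: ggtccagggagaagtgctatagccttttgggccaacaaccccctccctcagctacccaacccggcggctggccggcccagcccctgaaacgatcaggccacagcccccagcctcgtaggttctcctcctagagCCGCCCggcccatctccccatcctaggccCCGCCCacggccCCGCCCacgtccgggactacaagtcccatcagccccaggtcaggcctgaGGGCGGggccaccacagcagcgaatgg
Acss2: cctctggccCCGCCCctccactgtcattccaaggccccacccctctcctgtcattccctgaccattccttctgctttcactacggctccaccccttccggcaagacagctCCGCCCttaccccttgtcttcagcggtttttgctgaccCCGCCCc
Slc25a1: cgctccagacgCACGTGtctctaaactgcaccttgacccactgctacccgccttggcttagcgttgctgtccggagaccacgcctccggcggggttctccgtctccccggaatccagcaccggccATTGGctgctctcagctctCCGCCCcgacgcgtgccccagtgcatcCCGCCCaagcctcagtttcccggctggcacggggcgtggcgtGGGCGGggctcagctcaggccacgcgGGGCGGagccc

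Over 250 bases before the start, Acly, Acss2 and Slc25a1 each held 4 GC boxes, 1 of those of Acss2 among the bases left out above. Of 32851 RefSeq windows of that length, 32.7% held at least 1, and the share that held 4 was not counted. Of the 3 printed stretches, only that of Slc25a1 held an E-box, 239 to 234 bases before the start. An E-box was found in 6.02% of all windows. A CCAAT box was found in the Slc25a1 stretch and in the bases left out for Acss2, and in 33.8% of all windows. The letters TCACNCCAC, a sterol response element core, were in none of the 3 windows and in 1.05% of all. These are matches of letters, not measured binding.

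Libraries held from 31.96 to 46.62 megareads counted in genes, and the least counted of the 10 genes, Hat1, had at least 424 reads in each. Levels are given as normalised counts per megaread (CPM), and as CPM per kilobase of exon where genes are compared with each other. The adipocyte genes Adipoq and Plin1 were abundant in all libraries (675 to 3223 CPM and 683 to 3553 CPM). The depot labels were checked against Hoxc10, a homeobox gene of subcutaneous fat: SAT libraries read 17.1 to 58.2 CPM and GAT libraries 0.111 to 1.33 CPM, but the library labelled low-fat SAT replicate 1 read 0.0416 CPM. That library also held 19510 CPM of 11 epididymis genes, against 0.720 CPM or less in 22 of the other libraries. It had the lowest sum over 10 adipocyte markers, 9063 CPM. Its sum over 7 visceral and mesothelial markers was 114.5 CPM, against 7.52 CPM or less in the other SAT libraries and 28.9 to 478 CPM in GAT. Results of the diet comparison are therefore given with and without this library. A GAT library, wild-type replicate 3, held 5665 CPM of the epididymis genes. Summed transcripts of 14 skeletal muscle genes were 92270 CPM in Azin2-/- SAT replicate 2, 77460 CPM in wild-type SAT replicate 3, 25370 CPM in low-fat replicate 5 and 6991 CPM in high-fat replicate 6, 1287 CPM in low-fat replicate 6, and 265.9 CPM or less elsewhere. Azin2 itself was lower in all Azin2-/- libraries than in any wild-type library of the same depot (8.32 to 11.8 against 16.2 to 25.2 CPM in SAT, and 12.5 to 19.0 against 22.4 to 25.4 CPM in GAT), and was not at 0; whether the counted exons lie outside the deleted part is not given.

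On GRCm38, the supply genes lie at chr11:100476353-100528000 (Acly), chr2:155517948-155585724 (Acss2) and chr16:17925223-17928219 (Slc25a1). The acetyltransferase genes lie at chr15:81585351-81652077 (Ep300), chr16:4081328-4213997 (Crebbp), chr11:100704746-100712465 (Kat2a), chr17:53566861-53672720 (Kat2b), chr19:5603014-5610237 (Kat5), chr11:95274259-95310246 (Kat7) and chr2:71388958-71441622 (Hat1). Counts are over all annotated exons of each gene. Per kilobase, Slc25a1 was the most abundant of the 10, with a median of 133 CPM per kb over the 24 libraries, followed by Acly with 56.1. Acss2 lay at 13.5 CPM per kb, within the range of the acetyltransferases, among which Kat2b was highest (16.9) and Ep300 lowest (4.01). Kat7 read 11.9, Kat2a 10.3, Kat5 7.01, Hat1 5.72 and Crebbp 4.28 CPM per kb. These levels depend on the summed length of all annotated exons, which is 10.2 kb for Acss2. Exons on the opposite strand overlap 12.1% of the exonic bases of Kat5 (Rnaseh2c) and 3.89% or less of those of Acss2 (Gss, Ggt7 and Acss2os); the strand setting of the counting is not given, so reads of these genes may be shared.

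The supply genes and the acetyltransferases differed in how far they ranged. Between the lowest and the highest library, Acly ranged 14.6-fold (7.60-fold without the library labelled low-fat replicate 1), Acss2 6.31-fold and Slc25a1 2.97-fold. Among the acetyltransferases, Kat2b ranged 2.29-fold, Hat1 2.11-fold and Ep300 1.92-fold. Kat7, Crebbp, Kat2a and Kat5 stayed within 1.39-fold to 1.499-fold. Summed per kilobase over the 7 acetyltransferases, group means lay between 59.1 and 66.3 CPM per kb, while the 3 supply genes together ran from 162 ± 18.4 (SD, n = 5) in wild-type SAT to 398 ± 234 (SD, n = 4) in low-fat SAT; without the library labelled low-fat replicate 1 that group read 299 ± 152 (SD, n = 3), and high-fat SAT, at 307 ± 27.2 (SD, n = 4), was highest. Groups of the 2 experiments differ in more than the diet, and no test was made across the experiments.

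**Figure D1:**
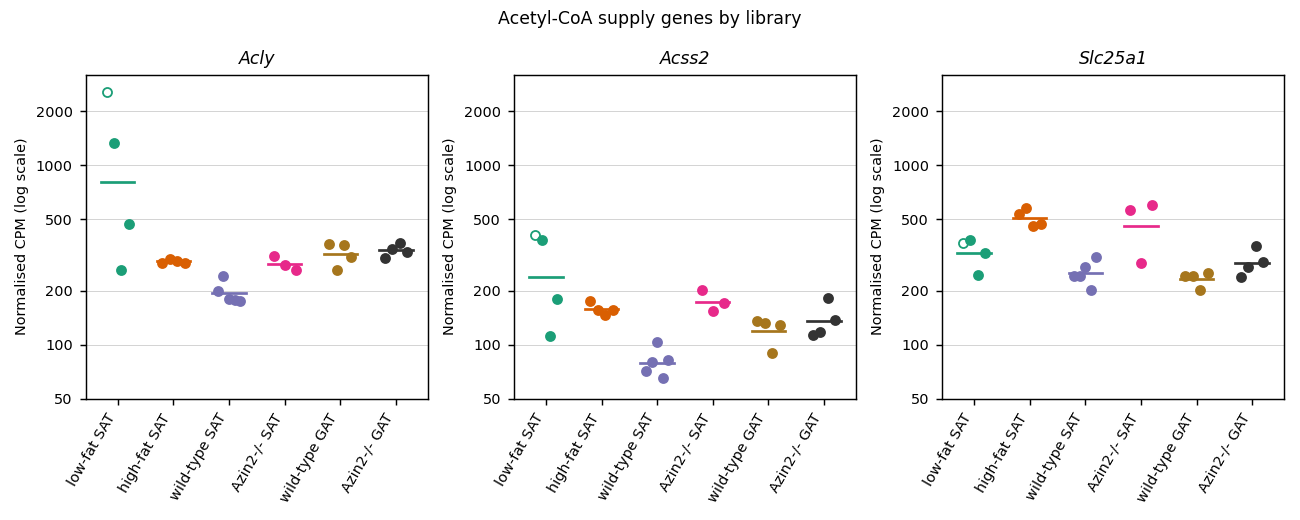
Normalised CPM (log axis) of Acly, Acss2 and Slc25a1 in each of the 24 libraries, by group; points are libraries, bars are geometric means, and the open point is the library labelled low-fat SAT replicate 1. Low-fat SAT spans 259 to 2561 CPM for Acly, against 285 to 300.5 CPM in high-fat SAT, and wild-type SAT is the lowest group for both Acly and Acss2.

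In the diet comparison, the question was how 20 weeks of high-fat diet changed SAT. Acly was at 2561, 1334, 259 and 473 CPM in low-fat replicates 1, 3, 5 and 6, and at 285, 300.5, 291 and 287 CPM in the high-fat libraries. The high-fat libraries were nearly alike, and the low-fat libraries lay on both sides of them: 3 above and replicate 5, rich in muscle transcripts, below. The fitted difference was a log2 fold change of -2.10 (SE 0.696), a 4.28-fold lower level on the high-fat diet, which did not pass the test (edgeR quasi-likelihood, adjusted p = 0.0683). Without the library labelled low-fat replicate 1 it was -1.25 (adjusted p = 0.116), and limma-voom with sample weights gave -0.86 on all libraries. Without low-fat replicate 5 it was -2.41 and passed (adjusted p = 0.0316), as did 14.6% of all genes.

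Acss2, the acetate-using enzyme, had the same order of the low-fat libraries: 410, 384, 112 and 180 CPM in low-fat replicates 1, 3, 5 and 6, against 174, 156, 146 and 157 CPM in high-fat replicates 3 to 6. The groups overlapped and the log2 fold change of -0.85 (SE 0.420) did not pass (adjusted p = 0.179). It was -0.51 without the library labelled low-fat replicate 1 (adjusted p = 0.354). Slc25a1, the carrier, went the other way, with 366, 385, 243 and 323 CPM on the low-fat and 535, 580, 460 and 472 CPM on the high-fat diet. All 4 high-fat libraries lay above all 4 low-fat libraries, and the log2 fold change was 0.58 (SE 0.190, adjusted p = 0.0649).

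Of the 10 genes, 0 were called on all 8 libraries at an adjusted p under 0.05, where edgeR called 21.2% of all 17066 genes tested (3622 genes; 8109 without the library labelled low-fat replicate 1, and 1802 to 2290 without any 1 of the high-fat libraries). At an unadjusted p under 0.05 the genes were 4 (Slc25a1 higher; Acly, Kat2a and Kat5 lower), against 37.2% of all genes. DESeq2 called 3 of the 10 (Acly, Slc25a1, Kat5; 33.4% of all genes) and limma-voom with sample weights 5 (Slc25a1, Kat2a, Kat2b, Kat5, Hat1; 46.9%). Groups did not overlap for Slc25a1 (higher) and Kat5 (lower), and for 32.5% of all genes.

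Without the library labelled low-fat replicate 1, edgeR called 5 of the 10 genes and 47.0% of all genes. Slc25a1 rose by a log2 fold change of 0.69 (SE 0.163), at an adjusted p of 0.00948. Kat2b, the PCAF acetyltransferase, fell by 0.62 on the log2 scale (SE 0.0704), at an adjusted p of 0.000236, from 117, 132 and 105 CPM in low-fat replicates 3, 5 and 6 to 75.6 to 78.4 CPM in the high-fat libraries. Its paralogue Kat2a fell by 0.27 (SE 0.0618, adjusted p = 0.00764), from 41.7, 39.3 and 36.8 CPM to 31.5 to 34.0 CPM. In that fit both catalytic subunits of SAGA and ATAC were lower on the high-fat diet, and their groups did not overlap, as for 52.4% of all genes. In the omitted library they read 57.7 CPM (Kat2b) and 29.4 CPM (Kat2a), below every high-fat library.

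Kat5, the TIP60 enzyme, read 27.6, 24.4 and 24.7 CPM in low-fat replicates 3, 5 and 6 and 21.4 to 22.2 CPM in the high-fat libraries. It fell by 0.24 on the log2 scale without the library labelled low-fat replicate 1 (SE 0.0631, adjusted p = 0.0143) and by 0.35 with it, when it did not pass (adjusted p = 0.0636). Hat1, which acts on new histones, read 13.3, 11.9 and 13.2 CPM in low-fat replicates 3, 5 and 6 and 17.5, 18.5, 17.5 and 14.3 CPM on the high-fat diet. It rose by 0.40 without the library labelled low-fat replicate 1 (SE 0.100, adjusted p = 0.0109), in which it was highest of the 4, at 21.7 CPM. With that library the log2 fold change was 0.10 (adjusted p = 0.774).

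Ep300, Crebbp and Kat7 were not called by any of the tools run on all 8 libraries, nor without the library labelled low-fat replicate 1. Ep300 read 67.3 to 77.0 CPM on the low-fat and 72.7 to 83.9 CPM on the high-fat diet (log2 fold change 0.07, SE 0.0975, adjusted p = 0.647). Crebbp was within 69.5 to 70.3 CPM in the high-fat libraries and at 72.0 to 72.8 CPM in low-fat replicates 3, 5 and 6 (log2 fold change -0.04, SE 0.0538, adjusted p = 0.613). Kat7 read 48.0 CPM in the library labelled low-fat replicate 1 and 63.3 to 72.0 CPM in the other 7.

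These differences lie beside others between the diets. Summed over 10 macrophage markers, the high-fat libraries held 1880 to 2392 CPM and the low-fat libraries 352 to 623 CPM. Over 13 proliferation genes the sums were 211 to 255 against 76.9 to 108 CPM. The sum over 10 adipocyte markers was 24790 to 26030 CPM on the high-fat diet, and 34070, 35180 and 37420 CPM in low-fat replicates 3, 5 and 6. Over 8 progenitor markers the sums were 5984 to 6411 against 1117 to 3947 CPM, and over 7 endothelial markers 1812 to 1889 against 433 to 1573 CPM. The part of these changes in the levels of the 10 genes was not tested, and in bulk tissue fewer cells of a type and less RNA per cell cannot be told apart. Leaving out low-fat replicates 1 and 5 and high-fat replicate 6, the libraries rich in epididymis or muscle transcripts, 6 of the 10 were called (38.5% of all genes): Slc25a1 and Hat1 higher, and Acly, Kat2a, Kat2b and Kat5 lower. The log2 fold change of Acly was then -1.63 (adjusted p = 0.0491), with 2 low-fat and 3 high-fat libraries.

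**Figure D2:**
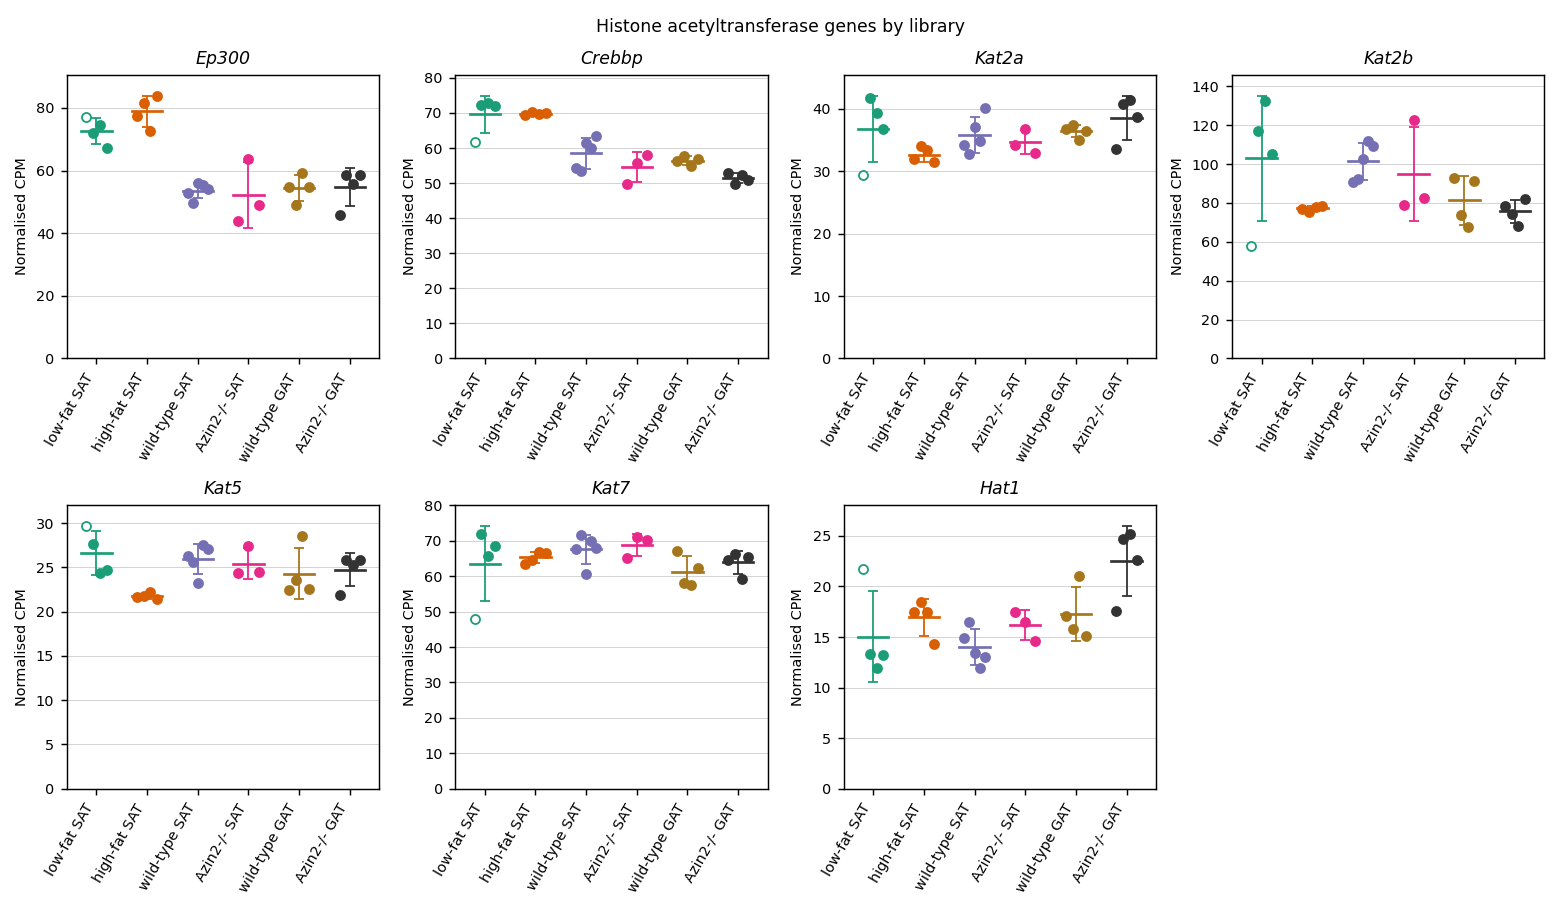
Normalised CPM of the 7 acetyltransferase genes in each of the 24 libraries, by group; points are libraries, horizontal bars are means, error bars are SD, and the open point is the library labelled low-fat SAT replicate 1. Kat2b lies at 75.6 to 78.4 CPM in high-fat SAT and at 105 to 132 CPM in low-fat replicates 3, 5 and 6. Ep300 is at 67.3 CPM or above in the diet experiment and at 63.8 CPM or below in the genotype experiment. The share of all genes that separate the experiments was not counted.

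Genes around the 10 gave the following counts in the diet comparison on all 8 libraries, where the median log2 fold change of all genes was -0.09 and 21.2% of all genes were called. Of 17 other genes of acetyl-CoA supply and transport, 5 fell and 0 rose (median -0.51), among them the acetaldehyde dehydrogenase Aldh2 (log2 fold change -1.06, adjusted p = 0.00493) and the pantothenate and biotin carrier Slc5a6 (-0.69, adjusted p = 0.00561). Of 12 genes that use acetyl-CoA, 6 fell and 0 rose (median -0.93), with both acetyl-CoA carboxylases in front: Acacb (-1.34, adjusted p = 0.00309) and Acaca (-1.78, adjusted p = 0.00879). Of 9 regulators of lipogenesis, 3 fell, including Thrsp (-2.89, adjusted p = 0.00125) and Srebf1, which codes for SREBP1 (-0.82, adjusted p = 0.00953). These 6 named genes were also called in each fit that left out 1 library. Without the library labelled low-fat replicate 1, where 47.0% of all genes were called, 11 of the supply genes fell and 1 rose, 9 of the use genes fell and 2 rose, and 3 regulators fell.

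The lists of chromatin genes are read against the same share of 21.2%. Of 14 other histone acetyltransferases, 2 fell, Kat6b (-0.32, adjusted p = 0.0311) and Kat8 (-0.42, adjusted p = 0.0377); Kat6b was not called when any 1 library other than low-fat replicate 1 or 5 was left out (adjusted p of 0.0523 to 0.105), nor Kat8 without any 1 other than low-fat replicate 1 (0.0539 to 0.129). Of 48 subunits of acetyltransferase complexes and histone chaperones, 8 fell and 1 rose (median -0.16): Ruvbl2 (-0.71, adjusted p = 0.00393) and the SAGA and ATAC subunit Tada3 (-0.38, adjusted p = 0.00599) fell, and the replication-linked chaperone Asf1b rose (1.71, adjusted p = 0.00369). Of 18 deacetylases and sirtuins, 5 fell and 1 rose. Hdac3 (-0.39, adjusted p = 0.00302) and the mitochondrial Sirt4 (-0.49, adjusted p = 0.00947) fell, and Hdac9 rose (1.49, adjusted p = 0.00280). Of 8 bromodomain readers, 0 were called, with a median of -0.03. Without the library labelled low-fat replicate 1, the share of all genes called was 47.0%. The counts were then 4 higher and 2 lower among the other acetyltransferases, and 3 and 14 among the subunits and chaperones. They were 2 and 11 among the deacetylases, and 0 and 1 among the readers.

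In the genotype comparison in SAT, the question was what the loss of Azin2 changed after 8 weeks of high-fat diet. Acss2 read 201, 154 and 170.2 CPM in the 3 Azin2-/- libraries and 70.9, 79.8, 104, 65.0 and 82.4 CPM in the 5 wild-type libraries. Every Azin2-/- library was above every wild-type library, with means of 175 ± 23.97 (SD, n = 3) and 80.3 ± 14.7 (SD, n = 5). The log2 fold change was 1.11 (SE 0.157), a 2.16-fold higher level, at an adjusted p of 0.167 in edgeR's test. Acly read 314, 279 and 259 CPM without Azin2 and 200, 240.4, 181, 178 and 175 CPM in the wild type. Those groups did not overlap either, with a log2 fold change of 0.53 (SE 0.127), at an adjusted p of 0.255.

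Slc25a1 read 562, 286 and 600 CPM in Azin2-/- replicates 1, 2 and 3, and 242, 241, 271, 202 and 307 CPM in the wild type. Replicates 1 and 3 exceeded all wild-type libraries, and replicate 2, the library with 92270 CPM of muscle transcripts, was among them. Without it the log2 fold change was 1.20 (adjusted p = 0.0903). On all libraries the log2 fold change was 0.92 (SE 0.236, adjusted p = 0.282). The 3 supply genes together came to 294 ± 81.3 CPM per kb (SD, n = 3) without Azin2 and 162 ± 18.4 (SD, n = 5) in the wild type.

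None of these passed: of the 10 genes 0 were called in Azin2-/- SAT by edgeR, which called 0.00590% of 16948 genes, that is 1 gene, and between 0 and 4 genes when any 1 library was left out. At an unadjusted p under 0.05 they were 3 of the 10, Acly, Acss2 and Slc25a1, against 10.3% of all genes. DESeq2 called these 3 genes and 2.04% of all genes (Acly adjusted p = 0.0115, Acss2 3.54e-07, Slc25a1 0.0177). limma-voom called Acss2 and Slc25a1 (adjusted p = 0.0111 and 0.0242) and 1.76% of all genes. Groups that did not overlap were found for Acly and Acss2 and for 7.26% of all genes. Without the 2 libraries rich in muscle transcripts, edgeR called 8 genes in all (0.0463%), of which Acss2 was 1 (log2 fold change 1.32, SE 0.118, adjusted p = 0.0291).

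The acetyltransferases showed no such separation in SAT. The log2 fold changes of Ep300, Crebbp, Kat2a, Kat2b, Kat5 and Kat7 lay between -0.11 and 0.01, with adjusted p of 0.697 to 0.956. Hat1 read 17.5, 16.5 and 14.6 CPM without Azin2 and 11.98 to 16.5 CPM in the wild type, a log2 fold change of 0.20 (SE 0.125), at an adjusted p of 0.607. The muscle-rich Azin2-/- replicate 2 had the highest Ep300 and Kat2b of the 8 SAT libraries (63.8 and 123 CPM), and the other 2 Azin2-/- libraries had the lowest (43.8 and 48.9 CPM of Ep300; 79.1 and 82.7 CPM of Kat2b). Without that replicate the log2 fold changes of Ep300 and Kat2b were -0.21 and -0.33, and neither was called.

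Among the surrounding genes in SAT, 0 were called in any list. The medians were 0.37 for the 17 other supply genes (15 of them positive) and 0.33 for the 11 tested genes that use acetyl-CoA, beside 0.01 for all genes. Without the 2 muscle-rich libraries these medians were 0.16 and 0.06. The sums over proliferation genes were 169, 88.2 and 132 CPM without Azin2 and 81.6 to 123 CPM in the wild type; those over macrophage markers were 672 to 1410 and 701 to 1217 CPM, and those over adipocyte markers 25930 to 34570 and 30450 to 40420 CPM. Their part in the levels of the supply genes was not tested.

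**Figure D3:**
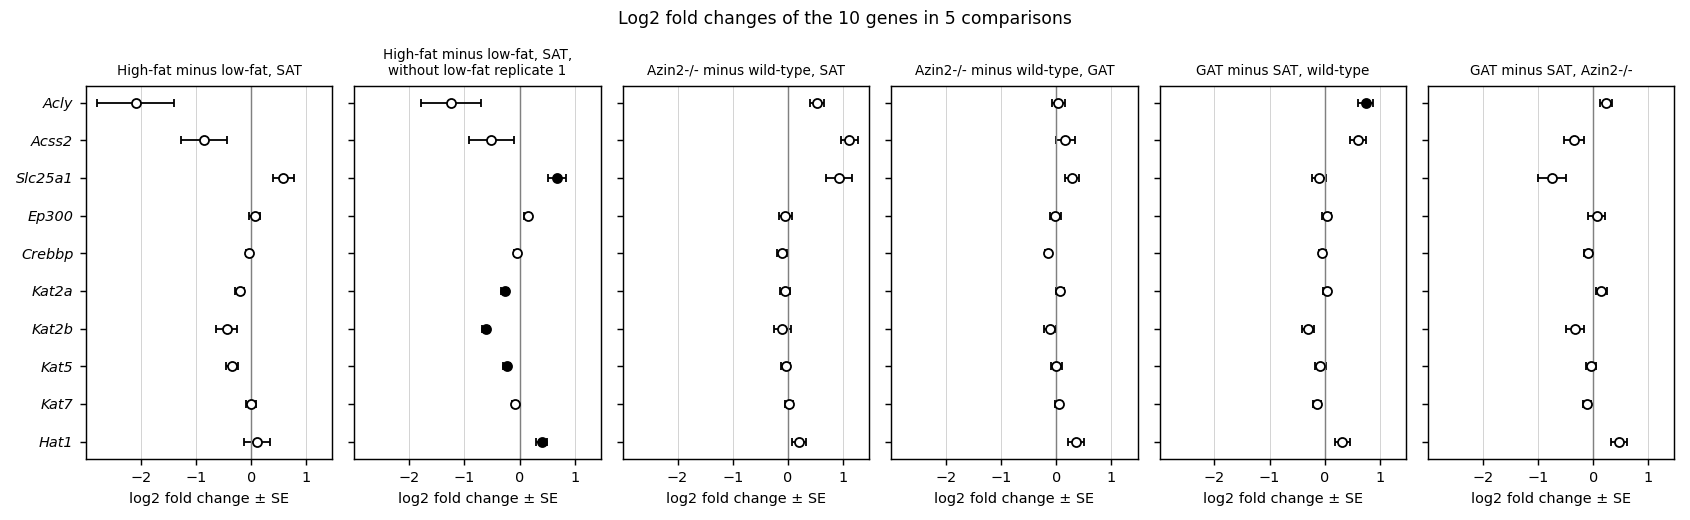
Log2 fold changes with SE of the 10 genes in 5 comparisons, the diet comparison drawn with and without the library labelled low-fat SAT replicate 1; filled points passed an adjusted p under 0.05 in edgeR's test and open points did not. Points right of 0 are higher on the high-fat diet, without Azin2, or in GAT; Acss2 lies at 1.11 for Azin2-/- in SAT and at 0.16 in GAT.

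In the genotype comparison in GAT, Acly read 306, 340, 368 and 330 CPM without Azin2 and 366, 261, 360 and 307 CPM in the wild type (log2 fold change 0.03, SE 0.121, adjusted p = 0.876). Acss2 read 113, 118, 183 and 138 CPM against 136, 132, 90.1 and 128 CPM (0.16, SE 0.176, adjusted p = 0.5681). Slc25a1 read 239, 271, 355 and 289 CPM against 242, 242, 202 and 252 CPM (0.28, SE 0.124, adjusted p = 0.175), with 3 of the 4 Azin2-/- libraries above all wild-type libraries. For Acly and Acss2 the groups overlapped.

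Crebbp, the CBP coactivator, was the only 1 of the 10 whose GAT groups did not overlap between genotypes, as for 14.4% of all genes. It read 52.8, 49.8, 52.4 and 50.9 CPM without Azin2 and 56.4, 57.8, 54.8 and 56.7 CPM in the wild type. The difference was small, a log2 fold change of -0.15 (SE 0.0543), and did not pass in edgeR (adjusted p = 0.117); DESeq2 and limma-voom called it (adjusted p = 0.0198 and 0.0149). Hat1 read 17.6, 24.7, 25.2 and 22.6 CPM without Azin2 and 17.0, 15.8, 21.0 and 15.1 CPM in the wild type. All Azin2-/- libraries but replicate 1 were above the wild type. The highest wild-type value, 21.0 CPM, was that of replicate 3, the GAT library with epididymis transcripts. In edgeR the log2 fold change was 0.36 (SE 0.147, adjusted p = 0.152), and it passed in limma-voom alone (0.55, adjusted p = 0.00297). Without wild-type replicate 3 it was 0.49 in edgeR (adjusted p = 0.0519). With any 1 library left out it ran from 0.30 to 0.49 (adjusted p of 0.0519 to 0.351).

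Of the 10 genes, 0 were called in Azin2-/- GAT by edgeR, which called 6.77% of 16778 genes; 2 (Crebbp and Hat1) had an unadjusted p under 0.05, as had 28.7% of all genes. DESeq2 called 1 of the 10 and 19.1% of all genes, limma-voom 2 and 38.5%. The edgeR calls over all genes depended on the filter and on the libraries: 1136 genes in the full comparison were 0 with no filter on low counts, 0 without Azin2-/- replicate 3 or 4 or wild-type replicate 2 or 4, 1 without Azin2-/- replicate 2, and 2672 without Azin2-/- replicate 1. Azin2-/- replicate 1 had the lowest value of its group for 7 of the 10 genes, Hat1 (17.6 CPM), Kat5 (21.9 CPM), Acly, Acss2, Slc25a1, Ep300 and Kat2a, and also its lowest proliferation and macrophage sums, 150 and 2334 CPM, against 296 to 322 and 4064 to 5661 CPM in the other 3. In wild-type GAT the proliferation sums were 99.0 to 137 CPM and the macrophage sums 1158 to 2098 CPM. The progenitor sums were 4211 to 6365 CPM without Azin2 and 2950 to 4007 CPM in the wild type, and the adipocyte sums 22180 to 24850 and 22180 to 33420 CPM. The part of these in the levels of Hat1 and Crebbp was not tested.

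The lists around the 10 genes are read against the 6.77% of all genes that edgeR called in this comparison. GAT without Azin2 had 1 of 17 other supply genes lower (Slc5a6, log2 fold change -0.39, adjusted p = 0.0408). It had 1 of 11 genes that use acetyl-CoA lower (Nat8l, which makes N-acetylaspartate, -1.39, adjusted p = 0.0498), and 1 of 9 regulators lower (Thrsp, -1.06, adjusted p = 0.0440). Of 48 complex subunits and chaperones, Asf1b was higher (1.30, adjusted p = 0.0455) and Tada3 lower (-0.32, adjusted p = 0.0455). Each of these calls was lost without Azin2-/- replicate 2, 3 or 4 or wild-type replicate 2 or 4. The medians of the supply and use lists were -0.18 and -0.34, beside -0.03 for all genes.

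The difference of the genotype effect between the depots was tested as an interaction over the 16 libraries of the genotype experiment. It was -0.95 for Acss2 (SE 0.252, adjusted p = 0.312), -0.64 for Slc25a1 (SE 0.282, adjusted p = 0.433) and -0.50 for Acly (SE 0.181, adjusted p = 0.375), where a negative value means a smaller rise or larger fall in GAT than in SAT. For the 7 acetyltransferases it lay between -0.04 and 0.16. In edgeR 0 of the 10 genes and 0 of 18033 genes (0%) were called; 3 of the 10 and 11.2% of all genes had an unadjusted p under 0.05, and those 3 were the supply genes. DESeq2 called Acss2 (-0.95, adjusted p = 0.0419) and 1.11% of all genes; limma-voom called Acss2, Slc25a1 and Hat1 and 15.1% of all genes. The interaction, the genotype comparisons and the depot comparisons share their libraries and are not independent of each other.

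Between the depots of wild-type mice, GAT against SAT, Acly was the 1 gene of the 10 that edgeR called, where it called 4.33% of 17030 genes. Its level was 323 ± 49.4 CPM (SD, n = 4) in GAT and 195 ± 27.2 (SD, n = 5) in SAT, from the library values given above, and the groups did not overlap, as for 10.5% of all genes. It rose by a log2 fold change of 0.74 in GAT (SE 0.135), at an adjusted p of 0.0173. Without wild-type SAT replicate 5 it was 0.71 and the call was lost (adjusted p = 0.0510). The call was also lost with all 24 libraries in 1 fit (adjusted p = 0.293), where 628 genes were called in all. It was lost too with a block for the animal marks (0.73, adjusted p = 0.269), where 0 genes were called in all. Only libraries whose mark recurs in both depots bear on that estimate: GAT replicates 1, 2 and 3 with SAT replicates 2, 3 and 5. Whether a shared mark names the same mouse is not given. At an unadjusted p under 0.05 the genes were Acly, Acss2, Kat2b and Hat1, against 21.9% of all genes.

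Acss2 in wild-type mice was 122 ± 21.1 CPM (SD, n = 4) in GAT and 80.3 ± 14.7 (SD, n = 5) in SAT. Of the 4 GAT libraries 3 lay above all SAT libraries, with replicate 3, the GAT library with epididymis transcripts, at 90.1 CPM. The log2 fold change of 0.60 (SE 0.154) did not pass on all libraries (adjusted p = 0.0598). It passed without GAT replicate 3 (0.71, adjusted p = 0.0220; 5.29% of all genes called), without SAT replicate 3 (0.71, adjusted p = 0.0200; 4.04%) and without both (0.82, adjusted p = 0.00283; 6.67%). DESeq2 and limma-voom called Acly and Acss2, and 10.9% and 14.6% of all genes. Slc25a1 was alike in the depots within the spread of the libraries, at 234 ± 22.0 (SD, n = 4) and 253 ± 38.9 CPM (SD, n = 5), with a log2 fold change of -0.10 (SE 0.122), at an adjusted p of 0.654.

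None of the acetyltransferases was called between wild-type depots. Kat2b was 81.4 ± 12.5 CPM (SD, n = 4) in GAT and 101 ± 9.62 (SD, n = 5) in SAT (log2 fold change -0.31, SE 0.111, adjusted p = 0.151). Hat1 was 17.2 ± 2.66 CPM (SD, n = 4) and 14.0 ± 1.78 (SD, n = 5), with a log2 fold change of 0.31 that did not pass (SE 0.135, adjusted p = 0.213). The macrophage marker sums were 1158 to 2098 CPM in GAT and 701 to 1217 CPM in SAT, and their part in these levels was not tested. Ep300, Crebbp, Kat2a, Kat5 and Kat7 had log2 fold changes from -0.13 to 0.03. Of the other genes, the thiolase Acat1 (-0.50, adjusted p = 0.0230) and Mlxipl, which codes for the glucose-responsive factor ChREBP (-0.48, adjusted p = 0.0464), were lower in GAT. So were the SAGA subunit Sgf29 (-0.37, adjusted p = 0.0267), Ruvbl2 (-0.32, adjusted p = 0.0440) and Sirt3 (-0.57, adjusted p = 0.0368). The counts were 1 of 17 in the supply list, 0 of 11 in the use list, 1 of 9 regulators, 2 of 48 subunits and 1 of 18 deacetylases, beside 4.33% of all genes. Each of these 5 calls was lost in 2 to 7 of the 9 fits that left out 1 library, and all were lost with wild-type GAT replicate 2 left out.

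In the comparison of the depots without Azin2, Acly read 306 to 368 CPM in GAT and 259 to 314 CPM in SAT (log2 fold change 0.24, SE 0.108, adjusted p = 0.164), and Acss2 read 113 to 183 CPM in GAT and 154 to 201 CPM in SAT (-0.35, SE 0.184, adjusted p = 0.218). Slc25a1 was 239 to 355 CPM in GAT against 562, 286 and 600 CPM in SAT, a log2 fold change of -0.75 (SE 0.260), at an adjusted p of 0.0901. Without the muscle-rich SAT replicate 2 it was -1.01 and passed (adjusted p = 0.0156, with 14.7% of all genes called), and DESeq2 and limma-voom called it on all libraries. Hat1 was 17.6 to 25.2 CPM in GAT and 14.6 to 17.5 CPM in SAT, with no overlap (as for 31.2% of all genes) and a log2 fold change of 0.47 (SE 0.142), at an adjusted p of 0.0627; without GAT replicate 1 it was 0.57 and passed (adjusted p = 0.0175, with 17.8% of all genes called). The macrophage sums were 2334 to 5661 CPM in GAT and 672 to 1410 CPM in SAT, and the proliferation sums 150 to 322 and 88.2 to 169 CPM; their part in the level of Hat1 was not tested.

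In edgeR's fit of all Azin2-/- libraries 0 of the 10 genes and 15.2% of 16800 genes were called, and 2 of the 10 (Slc25a1 and Hat1) and 34.5% of all genes had an unadjusted p under 0.05. DESeq2 called 2 of the 10 and 26.6% of all genes, and limma-voom 4 (Acly, Slc25a1, Kat2a and Hat1) and 39.5%. The count over all genes fell from 2549 to 36 without GAT replicate 2, 40 without SAT replicate 3, 218 without GAT replicate 4 and 278 without GAT replicate 3. Of the 17 other supply genes, 7 were lower in GAT and all 17 had a negative log2 fold change (median -0.63, against -0.03 for all genes), with the cytosolic aconitase Aco1 (-0.63, adjusted p = 0.0177) and the pyruvate dehydrogenase subunit Dlat (-0.94, adjusted p = 0.0207) first by p. The muscle marker sum was 92270 CPM in SAT replicate 2, and the part of muscle transcripts in the levels of these genes was not tested. Of 11 genes that use acetyl-CoA, Nat8l (-2.84, adjusted p = 0.0117) and Acat2 (-0.61, adjusted p = 0.0171) were lower and the polyamine acetylase Sat1 higher (0.84, adjusted p = 0.0231). Of 9 regulators 3 were lower, first Srebf1 (-0.65, adjusted p = 0.0199) and Pparg (-0.46, adjusted p = 0.0334). In the chromatin lists the calls were Jade3 (0.77, adjusted p = 0.0201) and Ing5 (0.28, adjusted p = 0.0450) higher and Sgf29 (-0.56, adjusted p = 0.0201) and Dmap1 (-0.42, adjusted p = 0.0310) lower of 48 subunits, Sirt5 (-0.72, adjusted p = 0.0403) and Hdac3 (-0.36, adjusted p = 0.0465) lower of 18 deacetylases, and 0 of 14 other acetyltransferases. All of these named calls were lost without GAT replicate 2.

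Put in order of group means, wild-type SAT was lowest for Acly, Acss2 and Hat1. For Acly it was followed by Azin2-/- SAT (284 ± 27.5, n = 3), whose libraries did not overlap with it, and by high-fat SAT of the diet experiment (291 ± 6.91, n = 4), wild-type GAT, Azin2-/- GAT (336 ± 25.8, n = 4) and low-fat SAT (1157 ± 1045, n = 4, or 689 ± 569, n = 3, without the library labelled low-fat replicate 1), where each neighbour overlapped the next (CPM ± SD). For Slc25a1 the highest means were those of high-fat SAT of the diet experiment (512 ± 56.2, n = 4) and Azin2-/- SAT (482.5 ± 171, n = 3), with overlapping ranges, and the other 4 groups lay at 234 to 329 CPM. Kat5 was lowest in high-fat SAT of the diet experiment (21.8 ± 0.353, n = 4), without overlap with the next group by mean, wild-type GAT. Azin2-/- GAT replicate 1, at 21.9 CPM, lay within its range. For groups of different experiments, the share of all genes without overlap was not counted.

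Ep300 and Crebbp both had higher group means in the diet experiment than in the genotype experiment. Ep300 group means were 72.7 and 78.9 CPM in the first and 52.2 to 54.6 CPM in the second. Crebbp group means were 69.6 and 69.8 CPM against 51.5 to 58.5 CPM. Its libraries overlapped, with 61.7 CPM in the library labelled low-fat replicate 1 and 63.4 CPM in wild-type SAT replicate 5. High-fat SAT of wild-type mice occurs in both, at 20 and 8 weeks, and there Ep300 read 72.7 to 83.9 against 49.7 to 55.9 CPM. The share of all genes that separate those groups was not counted. Weeks on the diet and the experiment cannot be told apart, and no test was made. The ratio of Ep300 to Crebbp per kilobase stayed between 0.797 and 1.19 over all 24 libraries. That of Kat2b to Kat2a ran from 1.18 (Azin2-/- GAT) to 2.41 (low-fat SAT replicate 5, rich in muscle transcripts). The Kat2b to Kat2a ratio had a mean of 2.03 ± 0.158 (SD, n = 5) in wild-type SAT and 1.42 ± 0.223 (SD, n = 4) in Azin2-/- GAT. The ratio of Acly to Acss2 was 3.14 ± 0.305 (SD, n = 3) in Azin2-/- SAT, 3.56 ± 0.304 (SD, n = 4) in high-fat SAT of the diet experiment and 4.79 ± 1.02 (SD, n = 5) in wild-type SAT.

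The genes whose profile over the 24 libraries was most like that of Acly were Fasn and Sqle, followed by Acss2, with root mean square differences of 0.395, 0.397 and 0.459 log2 units between profiles centred on their means, beside 0.836 for the spread of Acly itself; 10364 genes were compared. For Acss2 they were Fasn (0.310), Sorl1 (0.358) and Me1 (0.372), beside its own 0.631. For Slc25a1 they were Me1 (0.228), Echdc1 (0.235) and Agpat2 (0.274), beside its own 0.485. Fasn codes for fatty acid synthase, Sqle for squalene epoxidase and Me1 for malic enzyme, and Fasn remained nearest to Acly and to Acss2, and Me1 to Slc25a1, without the library labelled low-fat replicate 1. For Hat1 they were Stard3 (0.109), Clcn7 (0.125) and Ptpn1 (0.129), beside its own 0.295; without that library Calm2 came first (0.0862). The libraries share groups, depots and cell composition, so likeness is a description of these samples.

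**Figure D4:**
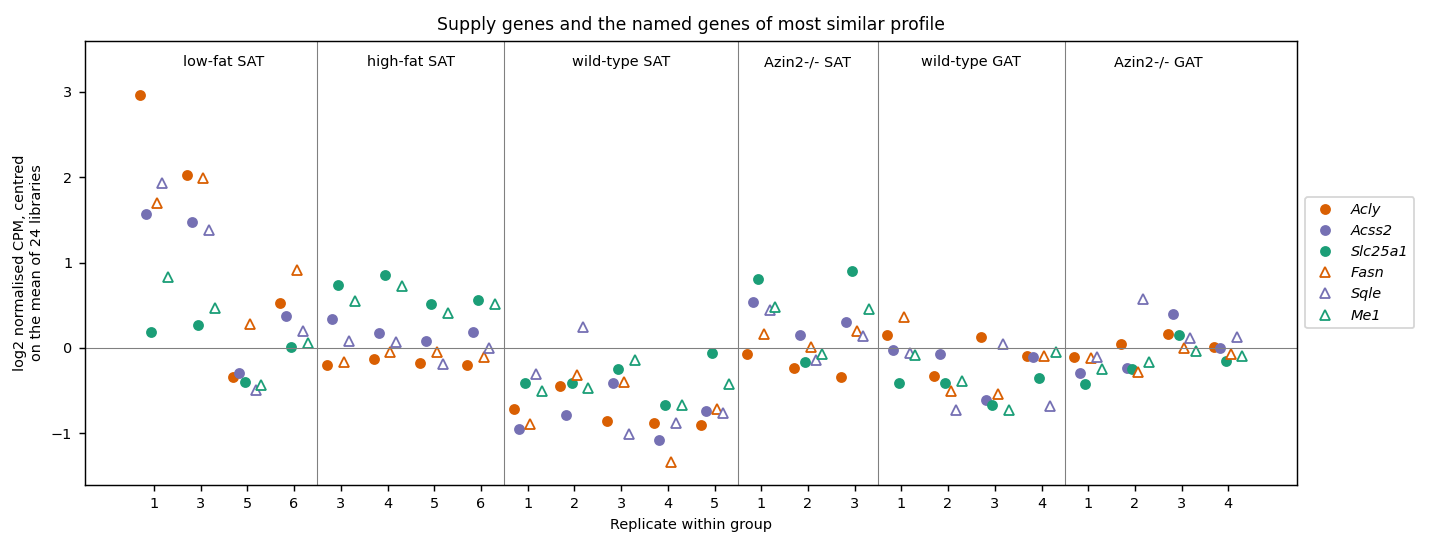
Log2 normalised CPM of Acly, Acss2 and Slc25a1 (filled circles) and of Fasn, Sqle and Me1 (open triangles) in each of the 24 libraries, each centred on its mean over the libraries. Acly, Acss2, Fasn and Sqle are all high in low-fat replicates 1 and 3 and lower in replicate 5, and Slc25a1 and Me1 are above their means in all 4 high-fat SAT libraries of the diet experiment.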

How the data were processed

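Counts per Ensembl gene, 1 table per library, are the authors' raw values, deposited without normalisation. Per the labels' protocols, libraries were stranded total RNA. The submitters' processing notes list HTSeq 0.6.1p1, STAR, cutadapt and the build GRCm38; no source used here gives the strand setting. Symbols and exonic lengths came from GENCODE M21. The main test was that of edgeR 4.0.16 under R 4.3.3 (filterByExpr with minimum count 10 and minimum total 15, TMM, robust quasi-likelihood test) on the groups compared, with p-values adjusted by Benjamini-Hochberg across the whole table and called under 0.05. The SE given for edgeR is the absolute log2 fold change divided by the square root of the F value of that test. Levels are CPM with TMM factors over all 24 libraries. A count of 0 allows up to 3 reads (95% confidence, counting error only). Alternatives were DESeq2 1.42.0 size factors, DESeq2's test, limma-voom 3.58.1 with quality weights, no filter, all 24 libraries in 1 fit, a replicate block, and left-out libraries. All 10 genes were named; of other lists, up to 2 called genes of smallest p per direction; and 3 nearest profiles of Acly, Acss2, Slc25a1 and Hat1. The genes and lists were chosen with earlier results of these data known. The tests were tried on simulated data.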

Additional observations from a re-analysis of the deposited data

Results flagged for a closer look

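In 4 of 50 combinations of a gene and a group of 4 or more libraries, 1 library stood far from the others of its group by Dixon's criterion at 95%, where chance gives about 1 in 20. Acss2 read 90.14 CPM in wild-type GAT replicate 3 and 128 to 136 CPM in the other 3. Crebbp read 61.67 CPM in the library labelled low-fat SAT replicate 1 and 71.95 to 72.75 CPM in the other 3, and Hat1 read 21.69 CPM in that library and 11.9 to 13.3 CPM in the others. Kat5 read 21.94 CPM in Azin2-/- GAT replicate 1 and 25.3 to 25.8 CPM in the other 3. The first 3 values come from the libraries with 5665 and 19510 CPM of epididymis transcripts.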

How the results depend on the processing

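Of 960 alternative values for the 10 genes in 6 comparisons, 850 kept the direction and the side of the threshold, 54 passed it where the reported value did not, 3 lost it and 53 changed sign. The 3 lost calls were all Acly between wild-type depots: without wild-type SAT replicate 5, with all 24 libraries in 1 fit, and with the replicate block (log2 fold change 0.73, adjusted p = 0.269). Of 529 alternative values for other named genes, 167 lost the call and 0 changed sign.

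Counts of the 10 genes and of all genes called moved as follows. For diet, 0 and 3622 were reported. DESeq2 gave 3 and 5395, limma-voom 5 and 7999, no filter 0 and 2335, and all 24 libraries 4 and 6056. Without the libraries rich in muscle or epididymis transcripts they were 6 and 6701. With 1 library left out they were 0 to 5 and 1802 to 8109. For genotype in SAT (0 and 1), DESeq2 gave 3 and 338, limma-voom 2 and 299, and all 24 libraries 0 and 13. Without the muscle-rich libraries they were 1 and 8, and with 1 left out 0 and 0 to 4. For genotype in GAT (0 and 1136), DESeq2 gave 1 and 3079, limma-voom 2 and 6456, and no filter 0 and 0. With 1 left out they were 0 and 0 to 2672. Between wild-type depots (1 and 738), DESeq2 gave 2 and 1784, limma-voom 2 and 2479, and no filter 1 and 490. All 24 libraries in 1 fit gave 0 and 628. Without the rich libraries they were 2 and 1136, and with 1 left out 0 to 2 and 296 to 909. Between Azin2-/- depots (0 and 2549), DESeq2 gave 2 and 4387, limma-voom 4 and 6631, and all 24 libraries 1 and 2866. With 1 left out they were 0 to 1 and 36 to 3414. For the interaction (0 and 0): DESeq2 1 and 158; limma-voom 3 and 2731; 1 left out 0 to 107 genes in all.

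The numbers and marks in the titles were not shown to pair the libraries: correlations of deviations between libraries with the same number or mark ran from -0.267 to 0.209, and were 0.802 and 0.449 in SAT by genotype, where the first pair is the 2 muscle-rich libraries. Libraries of different diets or genotypes with the same mark come from different mice. In the replicate block a library without a partner of the same mark is fitted exactly and adds no evidence on the difference. In the diet comparison these were low-fat replicate 1 and high-fat replicate 4. In SAT by genotype only Azin2-/- replicates 2 and 3 had partners, wild-type replicates 3 and 5. With the block, diet gave 3 of the 10 genes and 5867 in all, and genotype in SAT 0 in all. Genotype in GAT gave 1716 in all, wild-type depots 0 of the 10 and 0 in all, and Azin2-/- depots 1099 in all.

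Of the 53 log2 fold changes that changed sign, none was called in either fit. With the replicate block they were -0.069 (diet, Kat7), 0.0063 and 0.030 (SAT genotype, Ep300 and Kat5), 0.055 (GAT genotype, Ep300), and -0.010, -0.00036 and -0.048 (interaction, Ep300, Kat5 and Kat7). With limma-voom they were -0.074 (diet, Kat7), 0.099 (GAT genotype, Ep300), 0.012, -0.00066 and 0.017 (wild-type depots, Slc25a1, Ep300 and Crebbp), 0.050 (Azin2-/- depots, Kat5) and 0.067 (interaction, Kat2b). Without the rich libraries they were -0.12 (diet, Kat7), -0.037 (SAT genotype, Kat7), -0.0045 (wild-type depots, Ep300) and 0.14 (interaction, Kat2b). With 1 library left out, Kat7 ran from -0.076 to 0.055 for diet. For genotype in SAT, Ep300 ran from -0.21 to 0.059, Kat2b from -0.33 to 0.0071 and Kat7 from -0.021 to 0.048. For genotype in GAT, Acly ran from -0.056 to 0.10, Acss2 from -0.010 to 0.24, Ep300 from -0.065 to 0.052 and Kat5 from -0.038 to 0.11. Ep300 ran from -0.022 to 0.084 between wild-type depots and from -0.048 to 0.24 between Azin2-/- depots, where Kat5 ran from -0.078 to 0.016. In the interaction, Ep300 ran from -0.075 to 0.21, Crebbp from -0.10 to 0.012, Kat2b from -0.13 to 0.21, Kat5 from -0.0036 to 0.14 and Kat7 from -0.0067 to 0.064. The cause was not tested. With 3 to 5 libraries a group, a difference that missed the threshold is not shown to be absent.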
